A study of Homo sapiens with 15 samples.

Results

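The microRNA genes that stood above the dim end of the array in ZR-75-1 cells, an estrogen receptor positive human breast cancer line, are described here across treatment with 4 steroid hormone receptor ligands. A probe set was included where the platform annotation gave it a gene symbol beginning with MIR and a digit and not ending in HG, and where its mean over all 15 arrays was log2 4 or more. By that rule 175 probe sets of 171 microRNA genes were included, out of 722 microRNA probe sets, 14841 probe sets with a gene symbol and 34878 probe sets in all. The level chose them, so their levels are a description with no test. The table holds no detection calls, so a level of log2 4 is the rule's own threshold and is not a measured limit of detection.

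The cells were grown in RPMI-1640 with 10% FBS and given the ligand at 10 nM, or 0.1% ethanol as vehicle, for 6 h. The ligands are labelled MPA, PROG, DHT and DEX, which are usually read as medroxyprogesterone acetate, a synthetic progestin, progesterone, dihydrotestosterone, an androgen, and dexamethasone, a synthetic glucocorticoid. There were 3 arrays in each of the 5 groups. Vehicle arrays are also called untreated in the labels, which do not name a solvent for the ligands, and the serum in the medium was shared by all groups. Nothing in the labels says that the arrays of a group came from separate cultures, so the p-values measure only how arrays vary, and this variation may be technical. Total RNA from 1 cell line was measured in bulk, so fewer cells with a transcript and less of it per cell cannot be told apart.

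MicroRNAs are short RNAs cut from hairpins in longer primary transcripts, first in the nucleus by DROSHA with DGCR8 and then in the cytoplasm by DICER1. The mature strand guides an Argonaute protein to messenger RNAs that pair with its seed, and the targeted messages are repressed. Many microRNA genes lie inside the transcript of another gene, called the host, and steroid receptors are known to act on some of their promoters. The arrays were hybridised with cDNA made from amplified total RNA. Whether a probe set read the primary transcript, the hairpin or the mature strand was not tested, and the values are called levels of the microRNA gene.

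The sequences of the microRNAs on which the results turn are shown first, from RefSeq (GRCh38.p14). A mature sequence was matched for 157 of the 175 probe sets. The seed, bases 2 to 8, is in capitals, and the microRNAs are grouped by shared seed because the seed sets which messages a microRNA can pair with. The group of MIR21 holds MIR590, and the group of MIR181B1 holds MIR181D. The miR-29 group shows 3 mature forms from 4 genes, since MIR29B1 and MIR29B2 give the same miR-29b-3p.

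hsa-miR-21-5p: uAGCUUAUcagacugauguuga
hsa-miR-29a-3p: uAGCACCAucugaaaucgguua
hsa-miR-29b-3p: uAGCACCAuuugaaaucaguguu
hsa-miR-29c-3p: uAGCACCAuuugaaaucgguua
hsa-miR-181b-5p: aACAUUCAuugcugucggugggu
hsa-miR-191-5p: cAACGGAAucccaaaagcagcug
hsa-miR-384: aUUCCUAGaaauuguucaua
hsa-miR-1913: uCUGCCCCcuccgcugcugcca

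The hairpins of the 3 genes with the clearest differences follow, together with that of MIR29B2, which lies within 10 kb of MIR29C on chromosome 1. Capitals mark the mature strands that the table lists. MIR21 lies at chr17:59841266-59841337 on the plus strand, inside VMP1. The others are on the minus strand of chromosome 1: MIR29C at chr1:207801852-207801939, MIR29B2 at chr1:207802443-207802523 and MIR181B1 at chr1:198858873-198858982, the last inside the long non-coding host gene MIR181A1HG.

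MIR21: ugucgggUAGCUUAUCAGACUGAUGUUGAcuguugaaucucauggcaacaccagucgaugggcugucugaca
MIR29C: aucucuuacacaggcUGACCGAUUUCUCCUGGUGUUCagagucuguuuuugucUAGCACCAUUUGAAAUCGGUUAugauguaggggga
MIR29B2: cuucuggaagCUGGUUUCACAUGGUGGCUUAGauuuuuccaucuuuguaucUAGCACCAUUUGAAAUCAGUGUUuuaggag
MIR181B1: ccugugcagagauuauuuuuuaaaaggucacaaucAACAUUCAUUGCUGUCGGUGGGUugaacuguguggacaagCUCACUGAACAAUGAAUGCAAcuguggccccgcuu

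Most microRNA genes lay low on the array. Of the 722 microRNA probe sets, 24.2% had a mean of log2 4 or more, against 58.6% of all named probe sets and 65.1% of those of protein-coding genes, while the median of an array was between log2 3.69 and 3.73. The 175 ran from log2 4.005 to 10.53 with a median of 4.635. Of these, 77 were under 4.5, 61 were at 5 or more and 39 at 6 or more. Just inside the threshold were MIR1322 at 4.005, MIR1284 at 4.013 and MIR519C at 4.017, and just outside it MIR25 at 3.994, with MIR500B and MIR4272 at 3.995. In 22 of the 175 the mean of at least 1 group was under 4, and in the other 153 all 5 group means were at 4 or more.

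The 10 highest means over the 15 arrays were those of MIR4737 (log2 10.53), MIR5047 (9.87), MIR3143 and MIR622 (8.89), MIR3916 (8.87), MIR574 (8.40), MIR181B1 (8.39), MIR3907 (8.38), MIR21 (8.29) and MIR29C (8.12). A level depends on the probes as well as on the RNA, so these levels were not compared with each other. MIR4737 ranged from 10.39 to 10.67 over the arrays and MIR5047 from 9.65 to 10.04, and neither was called in any comparison. MIR5047 lies inside DDX5, an RNA helicase that assists DROSHA, whose own probe set stood at 11.65. MIR622 lies inside KRT18P27, a pseudogene of keratin 18, and the keratin 18 probe sets stood at 12.10 and 7.61. Whether RNA of those transcripts binds the microRNA probes was not tested.

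Replicate arrays differed more for these probe sets than for most. The residual SD within groups had a median of 0.188 on the log2 scale (range 0.058 to 0.472), against 0.082 for all named probe sets and 0.074 for those with a mean of 4 or more. The widest were MIR29B2 (0.472), MIR620 (0.449), MIR320B2 (0.412), MIR4320 (0.408) and MIR328 (0.404). The median SE of a difference between groups was 0.135 for the 175 and 0.066 for all named probe sets, so a difference of a given size passed the test less readily in a typical microRNA gene.

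**Figure D1:**
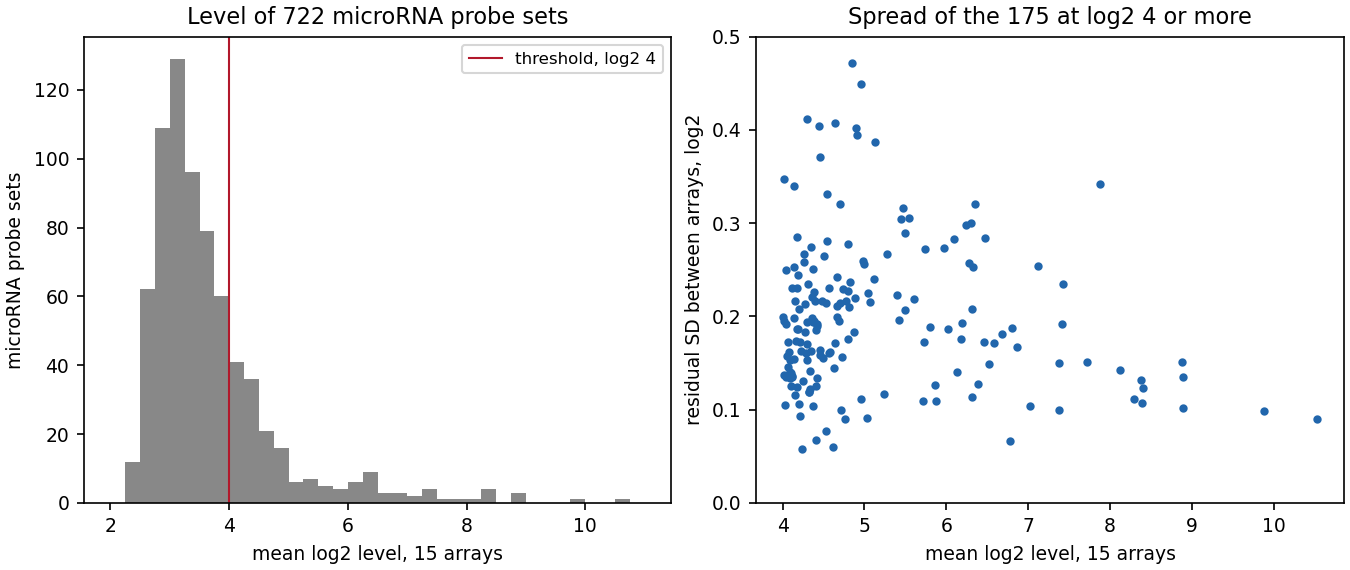
The left panel counts the 722 microRNA probe sets by mean log2 level over 15 arrays, with the threshold of log2 4 as a line. The right panel plots the residual SD between arrays (log2) of the 175 probe sets at or above it against their mean log2 level; the widest, MIR29B2, reaches 0.472.

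In sequence and position the 175 were described as follows. A hairpin was found for 149 of the 171 genes (87.1%) and for 445 of 515 microRNA genes under log2 4 (86.4%). The hairpins had a median GC content of 46.2% (quartiles 38.0 and 59.9) against 48.5% (42.9 and 55.8) in the lower genes, and a median length of 84 against 85 bases. Of the 175 probe sets, 105 (60.0%) belonged, by RefSeq gene positions, to a microRNA gene inside another gene on the same strand, against 51.2% of the lower microRNA probe sets, and 37 (21.1%) lay in no other gene, against 22.9%. Another 23 (13.1%) lay inside a gene whose strand relative to theirs was not known, against 17.7%, so the same-strand shares may be higher than given. Of the genes with a mature sequence, 32 of 155 shared a seed with another, in 13 seeds. Within 10 kb of each other lay 23 genes in 9 clusters, among them MIR29C with MIR29B2, MIR29A with MIR29B1, MIR200C with MIR141, MIR15B with MIR16-2 and MIR23B with MIR27B.

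MIR21 was the member with the largest difference from vehicle under MPA, PROG and DEX. It encodes miR-21, which is known to be abundant in many carcinomas. Its log2 level was 7.57, 7.49 and 7.45 on the vehicle arrays and 9.07, 9.08 and 8.82 on the MPA arrays. It was 8.59, 8.70 and 8.60 with PROG, 7.71, 8.04 and 7.94 with DHT, and 8.45, 8.38 and 8.51 with DEX. No array of any group lay within the range of another group, and all 12 treated arrays lay above the 3 vehicle arrays.

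Against vehicle, MIR21 rose by 1.49 on the log2 scale with MPA (SE 0.084, 2.80-fold, adjusted p = 3.12e-08 by limma). It rose by 1.13 with PROG (SE 0.084, 2.18-fold, adjusted p = 1.11e-06) and by 0.94 with DEX (SE 0.084, 1.92-fold, adjusted p = 4.01e-05). These calls held in 13 of 13 alternative settings each. With DHT it rose by 0.39 (SE 0.084, 1.31-fold, adjusted p = 0.0452 by limma), and this call held in 4 of 13. It was lost after quantile normalization, with all probe sets tested, with the replicate block and with only the 2 groups in the fit. Without vehicle array 1, 2 or 3, or DHT array 2 or 3, the DHT call was lost, and the adjusted p over the 6 fits that left out 1 array ran from 0.0132 to 0.185 while the difference ran from 0.32 to 0.49.

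The order of the MIR21 levels was MPA (mean 8.99), PROG (8.63), DEX (8.45), DHT (7.90) and vehicle (7.50). MPA and DHT differed by 1.09 (SE 0.084, adjusted p = 1.59e-06 by limma), MPA and DEX by 0.54 (adjusted p = 0.00129) and PROG and DHT by 0.73 (adjusted p = 1.86e-04). DHT was 0.55 below DEX (difference -0.55, adjusted p = 0.00479, lost with only the 2 groups in the fit). The neighbours MPA and PROG differed by 0.36 (95% interval 0.18 to 0.54, adjusted p = 0.116) and PROG and DEX by 0.18 (interval 0.00 to 0.36, adjusted p = 0.485), which did not pass the test.

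VMP1, a membrane protein of autophagy whose transcript contains the MIR21 hairpin, was called with no ligand. Its log2 level was 11.97, 12.06 and 12.13 on the vehicle arrays, 12.21, 12.18 and 12.12 with MPA, 12.18, 12.23 and 12.27 with PROG, 12.03, 12.09 and 12.16 with DHT, and 12.16, 12.21 and 12.17 with DEX. The differences of VMP1 from vehicle were 0.12 with MPA (adjusted p = 0.240), 0.17 with PROG (0.105), 0.04 with DHT (0.862) and 0.13 with DEX (0.380). As a comparison added after the data were seen, the difference between MIR21 and VMP1 within each array was fitted with all named probe sets. MIR21 gained on VMP1 by 1.37 with MPA (SE 0.084, adjusted p = 8.52e-08), by 0.95 with PROG (adjusted p = 6.57e-06) and by 0.82 with DEX (adjusted p = 1.37e-04). The gain with DHT, 0.35, did not pass (adjusted p = 0.0726).

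MIR590, whose mature strand shares the seed of miR-21, was called with no ligand. Its level differed from vehicle by -0.38 with MPA (SE 0.14, adjusted p = 0.141), by -0.17 with PROG (0.716), by -0.29 with DHT (0.507) and by -0.41 with DEX (0.264).

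MIR29C rose with the progestins and with DEX. It encodes miR-29c, of a family known for repressing collagens and other matrix genes and the DNA methyltransferases DNMT3A and DNMT3B. Its log2 level was 7.68, 7.42 and 7.46 on the vehicle arrays, 8.48, 8.62 and 8.60 with MPA, and 8.69, 8.40 and 8.46 with PROG. It was 7.80, 8.13 and 7.72 with DHT and 8.04, 8.19 and 8.14 with DEX. All treated arrays lay above the vehicle arrays. The MPA and PROG arrays overlapped each other, as did those of DHT and DEX, and the arrays of the former pair lay above those of the latter.

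The rise of MIR29C was 1.05 with MPA (SE 0.10, 2.07-fold, adjusted p = 1.20e-05 by limma), 1.00 with PROG (SE 0.10, 2.00-fold, adjusted p = 3.35e-05) and 0.60 with DEX (SE 0.10, 1.52-fold, adjusted p = 0.0107). The call with DEX was lost without vehicle array 2 or 3 or DEX array 2 or 3, where the adjusted p reached 0.0544. The difference with DHT, 0.36 (interval 0.14 to 0.59), did not pass (adjusted p = 0.165). MIR29C was higher with MPA than with DHT by 0.68 (adjusted p = 0.00112) and than with DEX by 0.44 (adjusted p = 0.0271), and higher with PROG than with DHT by 0.63 (adjusted p = 0.00417, lost with only the 2 groups in the fit). The MPA and DEX call was lost without MPA array 2 or 3 or DEX array 1 or 3, with adjusted p up to 0.102. MPA and PROG differed by 0.05 (interval -0.17 to 0.27).

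The other miR-29 genes gave no call. MIR29B2, the neighbour of MIR29C, was at 5.20, 4.16 and 5.20 on the vehicle arrays, 5.10, 5.30 and 4.43 with MPA, 5.10, 5.84 and 4.84 with PROG, 4.23, 4.72 and 4.73 with DHT, and 5.09, 4.21 and 4.57 with DEX. These ranges overlap, and the SE of a MIR29B2 difference was 0.33, so that the difference with MPA, 0.09, had an adjusted p of 0.929. MIR29A, from the other cluster, was at 4.81, 4.59 and 4.86 on the vehicle arrays and 5.13, 5.29 and 5.76 with DEX, which do not overlap. That MIR29A difference, 0.64 (interval 0.30 to 0.98), did not pass (adjusted p = 0.0854). MIR29B1 differed from vehicle by 0.24 with MPA (adjusted p = 0.418). The transcript that hosts MIR29C and MIR29B2 has no named probe set in the table and was not analysed here.

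MIR181B1 fell with MPA and PROG. It encodes miR-181b, known for roles in lymphocyte development and in differentiation. Its log2 level was 8.72, 8.51 and 8.82 on the vehicle arrays, 8.11, 8.05 and 7.98 with MPA, and 8.26, 8.04 and 8.26 with PROG. It was 8.51, 8.60 and 8.49 with DHT and 8.59, 8.55 and 8.42 with DEX. All MPA and PROG arrays lay below all vehicle, DHT and DEX arrays, and the latter 3 groups overlapped.

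The difference of MIR181B1 from vehicle was -0.64 with MPA (SE 0.081, 1.55-fold lower, adjusted p = 1.26e-04 by limma) and -0.50 with PROG (SE 0.081, 1.41-fold lower, adjusted p = 0.00227), the latter lost when only the 2 groups entered the fit. With DHT it was -0.15 (adjusted p = 0.593) and with DEX -0.16 (adjusted p = 0.516), neither past the threshold. MIR181B1 was lower with MPA than with DHT by 0.49 (difference -0.49, adjusted p = 0.00238) and than with DEX (difference -0.47, adjusted p = 0.00299). PROG was lower than DHT by a difference of -0.35 (adjusted p = 0.0459), a call that held in 3 of 13 alternative settings. It was lost without any 1 of the PROG or DHT arrays (adjusted p from 0.07 to 0.22), with array medians set equal, with all probe sets tested, with the replicate block and with only the 2 groups in the fit. MPA and PROG differed by -0.14 (interval -0.31 to 0.03).

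MIR181A1HG, the host transcript of MIR181B1, was also lower with MPA. It stood at 7.53, 7.52 and 7.60 on the vehicle arrays, 6.73, 6.94 and 6.96 with MPA, 7.36, 7.08 and 7.04 with PROG, 7.26, 7.60 and 7.26 with DHT, and 7.37, 7.22 and 7.39 with DEX. The MIR181A1HG difference from vehicle was -0.67 with MPA (SE 0.10, adjusted p = 6.34e-04) and, short of the threshold, -0.39 with PROG (adjusted p = 0.0602). The change of MIR181B1 minus that of its host was 0.04 with MPA (adjusted p = 0.912) and -0.11 with PROG (adjusted p = 0.809). MIR181D, which shares the seed of miR-181b-5p, differed from vehicle by -0.18 with MPA (adjusted p = 0.286).

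**Figure D2:**
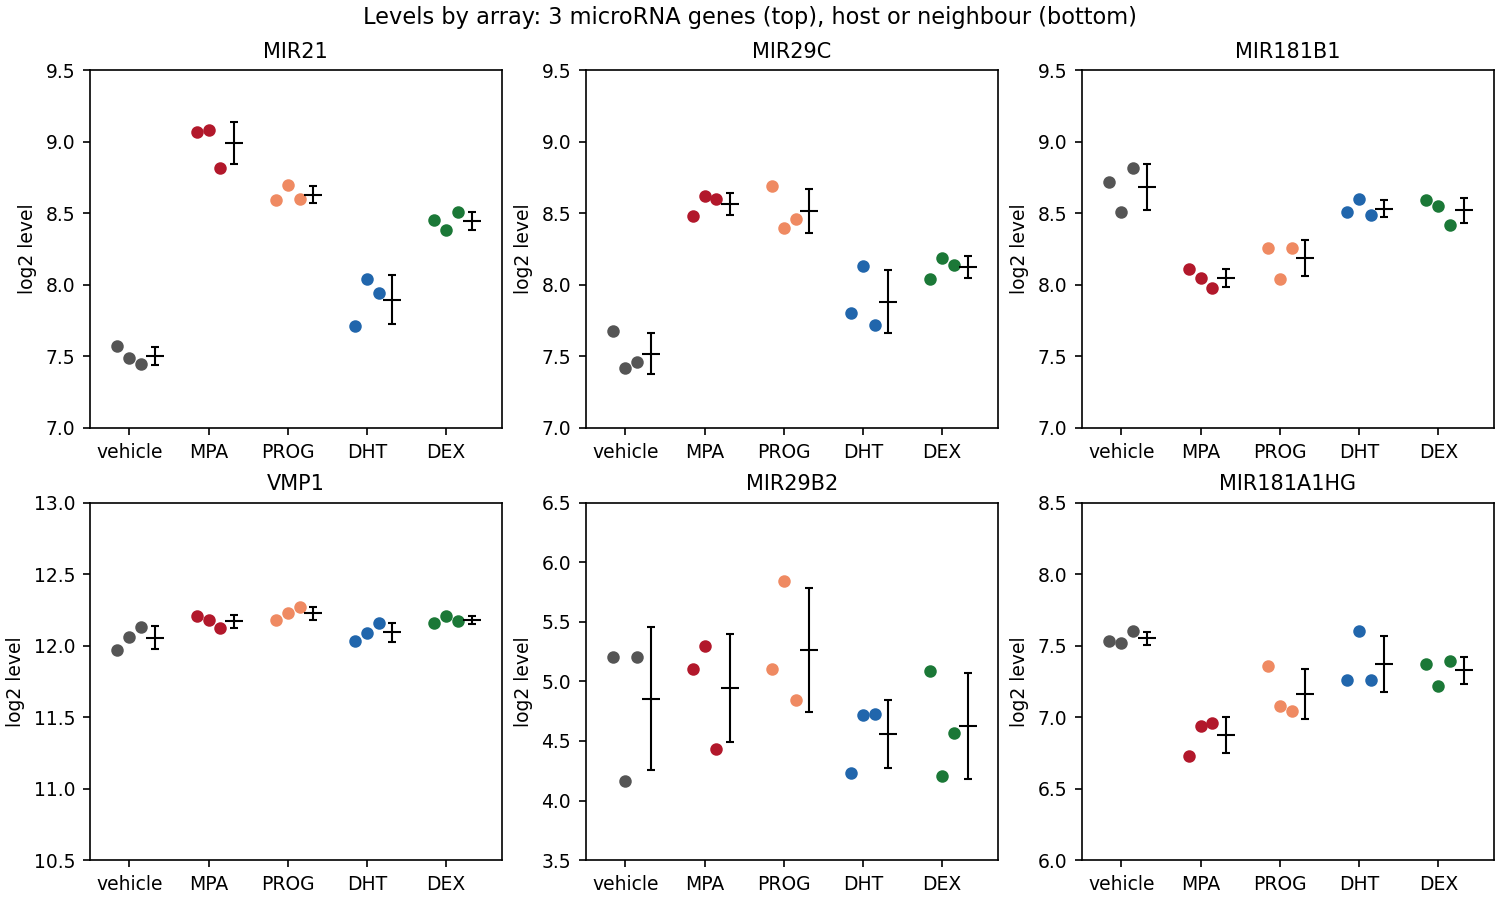
Log2 level on each of the 15 arrays (points), with group mean and SD (bars, n = 3), for MIR21, MIR29C and MIR181B1 (top row) and for VMP1, MIR29B2 and MIR181A1HG (bottom row, each with an axis of its own range). The 5 groups of MIR21 do not overlap, VMP1 stays between 11.97 and 12.27, and MIR181A1HG is lowest with MPA, between 6.73 and 6.96.

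Counted over the 175 probe sets, few passed the test. With MPA 6 were called at an adjusted p under 0.05, 3 higher and 3 lower (3.43%), against 5.93% of all named probe sets, 4.11% higher and 1.82% lower. With PROG 4 were called, 2 higher and 2 lower (2.29%), against 2.82% (2.43% higher and 0.391% lower). With DHT 2 were called, 1 higher and 1 lower (1.14%), against 0.889% (0.775% higher and 0.115% lower). With DEX 3 were called, 2 higher and 1 lower (1.71%), against 1.11% (0.957% higher and 0.148% lower). These shares lie near the background and are not a result about the microRNA genes as a set. In all, 9 of the 175 were called in at least 1 comparison with vehicle, and the 4 comparisons share the vehicle arrays. The number called with MPA was 3 without MPA array 1 or 3 and 10 without MPA array 2. With DHT it was 0 without vehicle array 1 or DHT array 2 or 3, and 1 without any of the other 3 arrays. With DEX it was 1 without vehicle array 3 or DEX array 3.

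The median difference from vehicle over the 175 was 0.003 with MPA, -0.030 with PROG, -0.037 with DHT and 0.000 with DEX, against -0.003, 0.000, -0.003 and 0.010 over all named probe sets. The arrays of the groups did not overlap in 26 of the 175 with MPA (14.9%, against 19.1% of all named probe sets), 23 with PROG (13.1% against 15.5%), 14 with DHT (8% against 12.7%) and 16 with DEX (9.14% against 13.6%). The distance from the lowest to the highest group mean had a median of 0.27 and was at 1 or more in 3 genes, MIR21 (1.49), MIR328 (1.41) and MIR29C (1.05). A moderated F test over all groups called 6 (3.43%, against 5.13% of all named probe sets), namely MIR21, MIR29C, MIR181B1, MIR384, MIR141 and MIR1913. Without PROG array 2 it called 3.

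**Figure D3:**
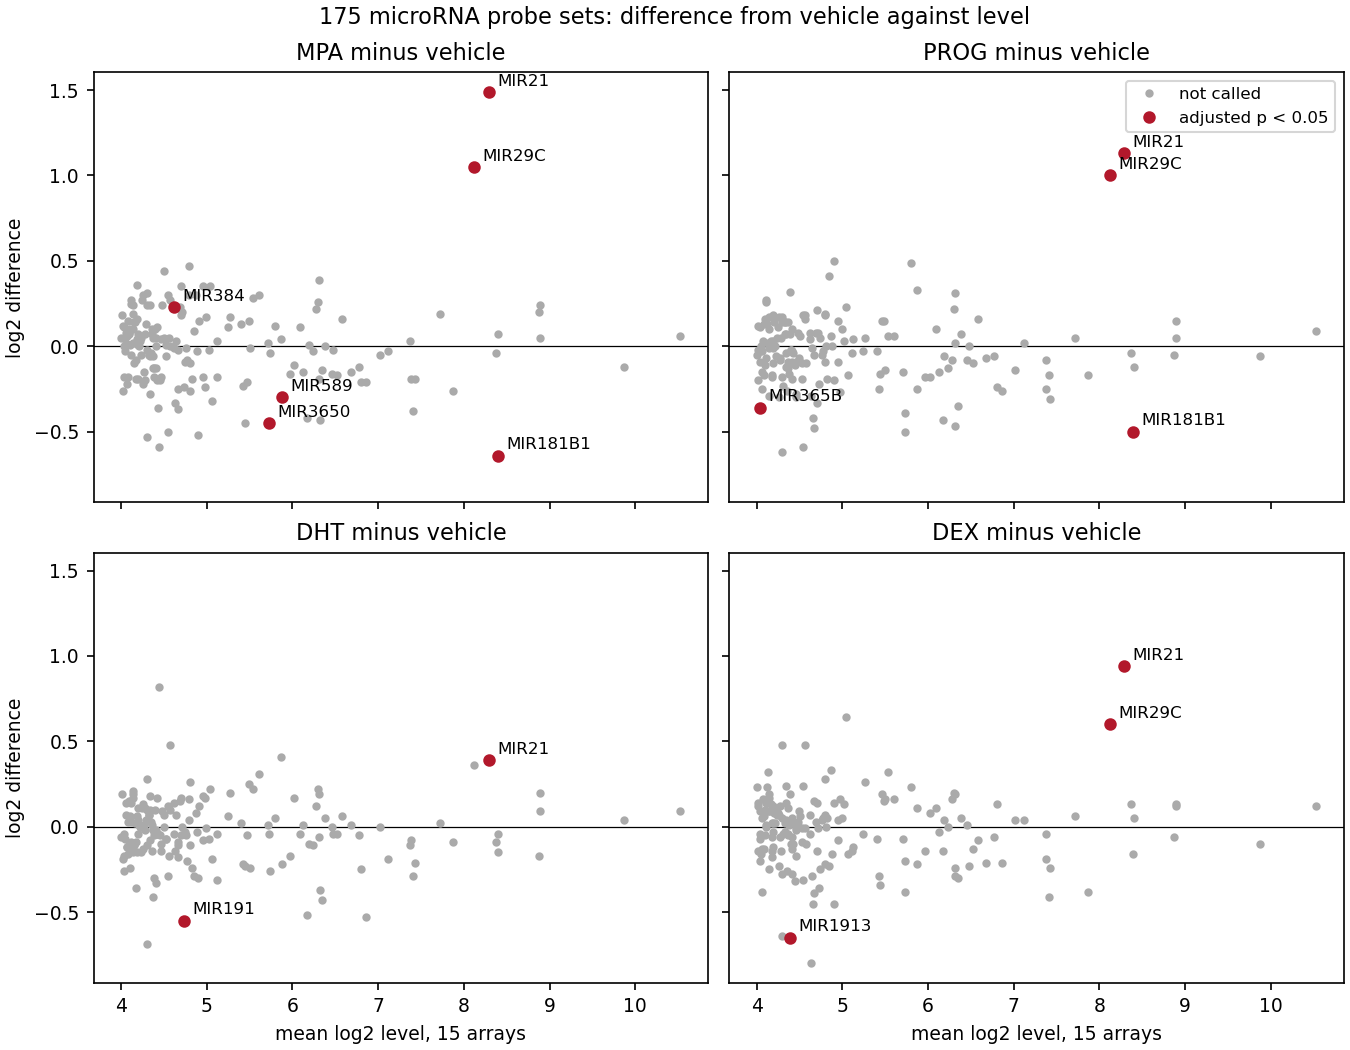
Log2 difference from vehicle against mean log2 level over 15 arrays for the 175 probe sets, a panel for each ligand; red points passed an adjusted p of 0.05 and are named. MIR21 lies highest with MPA (1.49), and most grey points lie within 0.5 of the zero line.

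The remaining calls against vehicle were each lost in some of the alternative settings. MIR384 was at 4.53, 4.57 and 4.56 on the vehicle arrays and at 4.84, 4.64 and 4.86 with MPA, which do not overlap. It rose by 0.23 with MPA (SE 0.053, adjusted p = 0.0178 by limma), a call lost without vehicle array 1 or MPA array 1 or 3 (adjusted p up to 0.0834), with a trended, robust variance and with only the 2 groups in the fit. It was also 0.27 higher with MPA than with DHT (adjusted p = 0.00795), lost with only the 2 groups in the fit.

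MIR3650 was at 5.95, 5.93 and 6.06 on the vehicle arrays and at 5.61, 5.42 and 5.55 with MPA, which do not overlap. It fell by 0.45 on the log2 scale (SE 0.12, adjusted p = 0.0470 by limma), and the call was lost when any 1 of the 6 arrays was left out (adjusted p from 0.0733 to 0.146), with array medians set equal and with all probe sets tested. MIR3650 also differed from vehicle by -0.39 with PROG (adjusted p = 0.16) and -0.38 with DEX (0.246), without passing. With DHT the MIR3650 difference was -0.04 (0.952). Its host LIFR, the receptor of leukemia inhibitory factor, differed by 0.24 with MPA (adjusted p = 0.108). In the comparison with hosts added after the data were seen, MIR3650 minus LIFR changed by -0.69 (SE 0.13, adjusted p = 0.00472). That comparison was not refitted with single arrays left out.

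MIR589 was at 5.97, 6.12 and 6.12 on the vehicle arrays and at 5.70, 5.92 and 5.69 with MPA, which do not overlap. The MIR589 difference was -0.30 (adjusted p = 0.0460 by limma), and it held in 5 of 13 alternative settings. It was lost without vehicle array 2 or 3 or MPA array 1 or 3 (adjusted p up to 0.162), with array medians set equal, with all probe sets tested, with the replicate block and with only the 2 groups in the fit. MIR589 also differed from vehicle by -0.25 with PROG (adjusted p = 0.172), -0.22 with DHT (0.353) and -0.22 with DEX (0.35), without passing.

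MIR365B is counted among the calls with PROG and is given as a description only. Its level was 4.06, 4.32 and 4.32 on the vehicle arrays and 3.86, 3.72 and 4.04 with PROG. It reached the log2 4 of the rule only through the vehicle arrays, since the mean of the other 12 arrays was 3.99, and a gene included in that way had to stand higher with vehicle. The same check, leaving out the arrays of each group in turn, put 5 of the included genes under log2 4, and MIR365B was the only called gene among them.

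MIR191 fell with DHT. Its gene lies within DALRD3, and miR-191 is reported as raised in many tumours. Its level was 5.05, 5.02 and 4.94 on the vehicle arrays and 4.49, 4.40 and 4.48 with DHT, which do not overlap. The MIR191 difference was -0.55 (SE 0.11, adjusted p = 0.0393 by limma), lost when any 1 of the 6 arrays was left out (adjusted p from 0.0777 to 0.146) and with all probe sets tested. MIR191 differed from vehicle by -0.36 with DEX (adjusted p = 0.218), -0.24 with MPA (0.302) and -0.22 with PROG (0.509). DALRD3 differed by 0.11 with DHT (adjusted p = 0.682).

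MIR1913 was lowest with DEX, at 3.69, 4.25 and 3.89, against 4.42, 4.57 and 4.78 on the vehicle arrays, which do not overlap. The MIR1913 difference was -0.65 (SE 0.14, adjusted p = 0.0402 by limma), which held in 5 of 13 alternative settings. It was lost without any 1 of the vehicle arrays or DEX array 1 or 3 (adjusted p up to 0.168), with all probe sets tested, with the replicate block and with only the 2 groups in the fit. PROG was above DEX by 0.72 (adjusted p = 0.0155), a call lost without PROG array 1 or 2 or DEX array 1 or 3 (adjusted p up to 0.0819) and with only the 2 groups in the fit. The DEX mean of 3.94 is under log2 4.

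**Figure D4:**
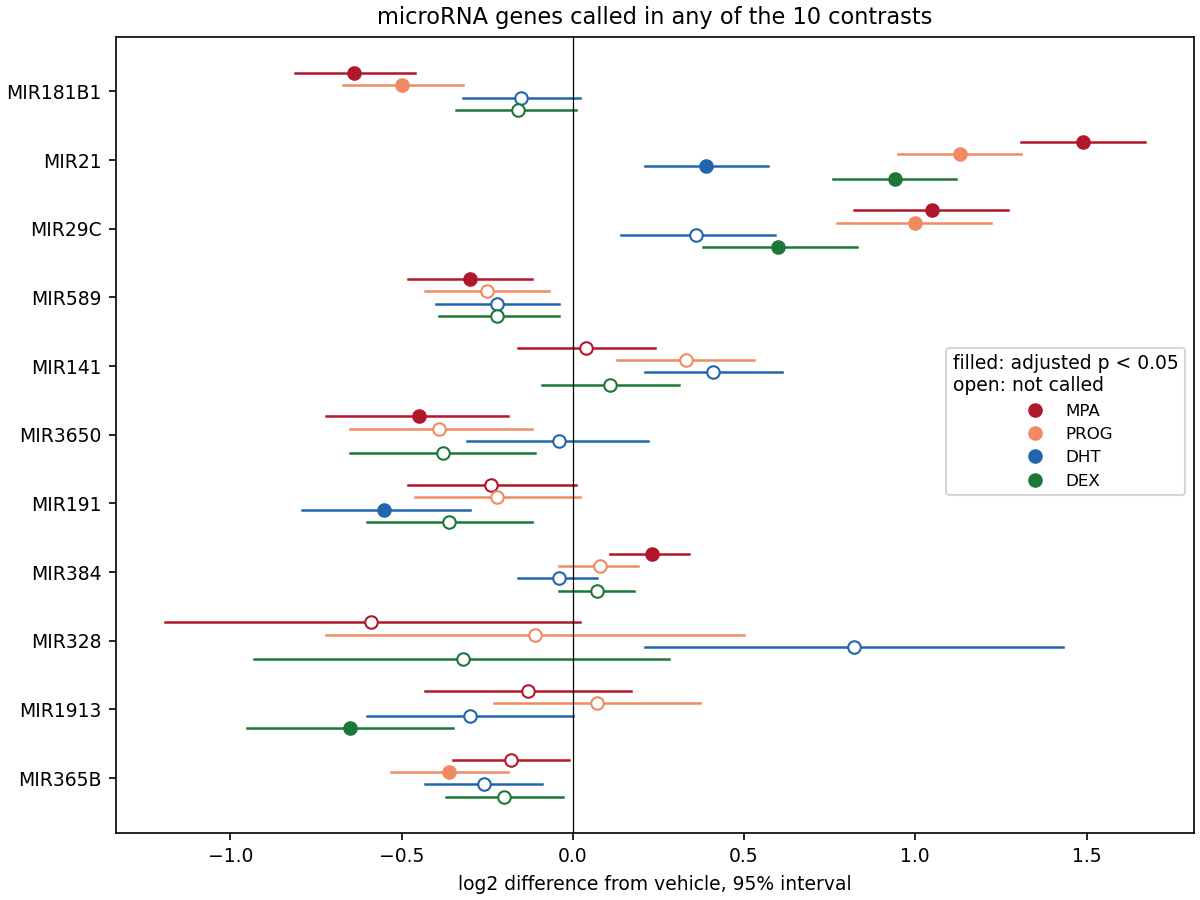
Log2 difference from vehicle with its 95% interval for the 11 microRNA genes called in any of the 10 comparisons, by ligand; filled points passed an adjusted p of 0.05 and open points did not. MIR328 and MIR141 were called between ligands and not against vehicle, and the intervals of MIR328 are the widest.

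The ligands were compared with each other in 6 pairs at the same dose and time. MPA has the steroid skeleton of progesterone with an added methyl group and an acetoxy group. Between MPA and PROG limma called 0 of the 175, against 0.29% of all named probe sets (0.236% higher and 0.0539% lower). With a trended, robust variance 1 was called. At an unadjusted p under 0.05 in the main fit there were 17 of the 175. The share of all named probe sets at that unadjusted threshold was not counted, so the 17 are not read as a difference between the progestins. The smallest adjusted p was 0.116, for MIR21. The largest differences, MIR548I2 at 0.52 (interval 0.03 to 1.00, adjusted p = 0.551) and MIR877 at -0.50 (interval -0.85 to -0.16, adjusted p = 0.332), did not pass. The arrays did not overlap in 20 (11.4%, against 11.7% of all named probe sets). This does not show that the 2 progestins act alike on these genes.

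Between MPA and DHT 6 were called (3.43%, against 3.51% of all named probe sets, 2.53% higher and 0.977% lower), with MIR21, MIR29C and MIR384 higher and MIR181B1, MIR141 and MIR328 lower with MPA. MIR141, of the miR-200 family that is known to keep epithelial identity by repressing ZEB1 and ZEB2, was at 5.61, 5.82 and 5.77 with MPA and 6.13, 6.05 and 6.11 with DHT. That MIR141 difference was -0.36 (SE 0.093, adjusted p = 0.0478 by limma) and was lost when any 1 of the 6 arrays was left out (adjusted p from 0.0593 to 0.183) and with all probe sets tested. Against the vehicle values of MIR141, 5.73, 5.60 and 5.74, the DHT arrays were all higher, by 0.41 on average, short of the threshold (adjusted p = 0.0610). The PROG arrays, at 5.82, 5.99 and 6.24, were also all higher than vehicle, by 0.33 on average (adjusted p = 0.0976). MIR200C, the neighbour of MIR141, differed from vehicle by 0.19 with DHT (adjusted p = 0.745) and by 0.39 with MPA (adjusted p = 0.168).

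MIR328 was at 4.05, 4.05 and 3.60 with MPA, 5.29, 4.99 and 5.64 with DHT and 4.42, 4.37 and 4.67 on the vehicle arrays, 3 groups that do not overlap. MPA was below DHT by a difference of -1.41 (SE 0.28, adjusted p = 0.00987 by limma), lost without MPA array 3 or DHT array 3 (adjusted p up to 0.0534). The MPA mean of 3.90 is under log2 4. Neither the MIR328 difference of DHT from vehicle, 0.82 (interval 0.21 to 1.43, adjusted p = 0.297), nor that of MPA, -0.59 (interval -1.19 to 0.02, adjusted p = 0.306), passed the test.

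The other pairs gave fewer calls. Between MPA and DEX 3 of the 175 were called (1.71%, against 4.06%, of which 2.49% higher and 1.57% lower), MIR21 and MIR29C higher and MIR181B1 lower with MPA. Between PROG and DHT 3 were called (1.71%, against 1.71%, of which 1.36% higher and 0.35% lower), the same 3 genes in the same directions for PROG. Between PROG and DEX 1 was called (0.571%, against 1.42%, of which 1.03% higher), MIR1913, and between DHT and DEX 1 (0.571%, against 0.654%, of which 0.398% lower), MIR21. The number for MPA and DEX was 6 without DEX array 2, that for PROG and DEX was 0 without PROG array 1 or 2 or DEX array 1 or 3, and that for DHT and DEX was 2 without DEX array 1. Comparisons that use the same ligand share its arrays.

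Several of the largest differences from vehicle did not pass the test. MIR320B2 was at 5.19, 4.08 and 5.11 on the vehicle arrays and between 3.70 and 4.74 on the treated arrays, a range that vehicle array 2 falls into. The MIR320B2 differences were -0.53 with MPA, -0.62 with PROG, -0.69 with DHT and -0.64 with DEX, with adjusted p from 0.369 to 0.455. MIR4320 differed from vehicle by -0.80 with DEX (interval -1.41 to -0.18, adjusted p = 0.308). MIR324 differed by -0.59 with PROG (adjusted p = 0.299). MIR3685 with DHT, at -0.53 (SE 0.12, interval -0.79 to -0.27), had an adjusted p of 0.0565.

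Host genes could be set beside 61 of the 175 probe sets, in 65 pairs with 57 host genes. With MPA 7 of the 57 hosts were called, with PROG 3, with DHT 1 and with DEX 2. Over all named probe sets the called shares were 5.93% with MPA, 2.82% with PROG, 0.889% with DHT and 1.11% with DEX. Whether hosts were called more often than other genes was not tested. Of the microRNA genes inside a called host, 1 was itself called with MPA, MIR181B1, and none with PROG, DHT or DEX. The change of a microRNA gene minus that of its host, compared after the data were seen, passed in few pairs. Of the 65 pairs, 3 passed with MPA, 2 with PROG, 0 with DHT and 1 with DEX. NVL, a nuclear ATPase that contains MIR320B2, fell by 0.61 with MPA (SE 0.048, adjusted p = 9.21e-07), 0.34 with PROG (adjusted p = 7.04e-04) and 0.24 with DEX (adjusted p = 0.0279). SYT1, synaptotagmin 1, which contains MIR1252, fell by 0.50 with MPA (adjusted p = 6.62e-05), 0.39 with PROG (0.00119), 0.34 with DHT (0.0124) and 0.31 with DEX (0.0219).

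MIR1252 itself differed by 0.24 with MPA (adjusted p = 0.461), so that MIR1252 minus SYT1 changed by 0.74 (SE 0.15, adjusted p = 0.00687). SMC4, a condensin subunit that contains MIR15B and MIR16-2, fell by 0.21 with MPA (adjusted p = 0.0133). MIR15B differed from vehicle by 0.49 with PROG (adjusted p = 0.0864), and MIR15B minus SMC4 changed by 0.58 with PROG (SE 0.13, adjusted p = 0.0292). MIR16-2, in the same host, differed from vehicle by 0.15 with PROG (SE 0.20, adjusted p = 0.861). The other called hosts with MPA were DTL at 0.20 (adjusted p = 0.00492), TRIB2 at -0.25 (0.0259) and KLF7 at 0.26 (0.00907). The microRNA genes inside them, MIR3122, MIR3125 and MIR2355, differed by 0.23, -0.19 and 0.04 and were not called.

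Of the genes that make and use microRNAs, such as DGCR8, XPO5, which exports the hairpins, and the TNRC6 proteins, which act with Argonaute, 18 of 33 listed were measured and 16 had a mean of 4 or more. DROSHA, DICER1 and the Argonaute genes are not among the 18, so the counts say nothing about them. None of the 18 was called against vehicle with any ligand by limma, and at an unadjusted p under 0.05 there were 2 with MPA, 2 with PROG, 1 with DHT and 1 with DEX. The median differences of this list were 0.032 with MPA, 0.023 with PROG, 0.015 with DHT and 0.008 with DEX, and DGCR8 with PROG stood at 0.15 (adjusted p = 0.212).

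Of 28 microRNA genes linked to steroid receptors in the literature, 25 were measured and 13 belong to the 175. MIR21 and MIR29C were called higher with MPA, PROG and DEX, MIR21 alone with DHT, and 0 were called lower by limma, where an unadjusted p under 0.05 gave 0 lower as well. The median differences of the 25 were 0.043, 0.070, 0.013 and 0.077 with MPA, PROG, DHT and DEX. Listed genes with no call included MIR190B, at 0.47 with MPA (adjusted p = 0.226), MIR23B at 0.02 (0.926) and MIR27B at -0.16 (0.558). Of 33 microRNA genes linked to breast cancer 24 were measured and 7 belong to the 175. MIR21 was called higher with each ligand and MIR191 lower with DHT. For both lists, the called shares over all named probe sets were 5.93% with MPA, 2.82% with PROG, 0.889% with DHT and 1.11% with DEX. The lists were chosen with earlier results of these data known, so the counts are not a result about the lists. MIR210, a hypoxia-linked microRNA, differed by -0.02 with MPA (adjusted p = 0.938), and MIR206 by -0.37 (0.279).

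The cell line was checked against its markers. Luminal breast markers (GATA3, FOXA1, KRT8, KRT18, KRT19, EPCAM, ESR1 and PGR, 9 probe sets) had means of 5.87 to 12.10. Of these 1 was called higher and 3 lower with MPA, 1 higher and 2 lower with PROG, 1 higher and 1 lower with DHT and 1 higher with DEX, and their mean ran from 9.12 to 9.14 over the vehicle arrays and from 8.98 to 9.02 over the MPA arrays, 9.03 to 9.07 with PROG, 9.08 to 9.17 with DHT and 9.11 to 9.17 with DEX. Their part in the microRNA differences was not tested. The luminal counts rest on 9 probe sets, and of all named probe sets 5.93% were called with MPA, 2.82% with PROG, 0.889% with DHT and 1.11% with DEX. Basal markers (3 measured of 6) had means of 2.96 to 3.60, fibroblast markers (2 of 6) 3.10 to 4.06 and blood or endothelial markers (2 of 8) 3.16 to 3.41, and limma called none of these 7 probe sets against vehicle. At an unadjusted p under 0.05 there was 1, with PROG. Replicate arrays of a group correlated at 0.9971 to 0.9978 over all probe sets and at 0.9559 to 0.9813 over the 175. Of the 175, 4 genes had 2 probe sets, and those of MIR548I1 held identical values, which leaves 174 when identical copies are counted once. Whether others of the 174 share probes was not tested.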

How the data were processed

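The authors deposited log2 expression values per probe set and array. The submitters' processing notes name Partek and RMA. Their versions and settings and the array's build, not given in the sources used here, could not be checked. RMA makes arrays alike in distribution, so a shift common to most genes would be removed, and it can compress changes of dim probe sets.

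Deposited values were used unchanged. Probe sets were named through the platform annotation (14841 with 1 symbol, 20037 without). limma 3.58.1 in R 4.3.3 (lmFit, eBayes) fitted 5 group means over 15 arrays to all named probe sets (residual degrees of freedom 10, prior 3.81). Benjamini-Hochberg adjustment ran over all of them within each of 10 contrasts, 2-sided, with a threshold of 0.05. All adjusted p-values and 95% intervals are from limma, which was tested on simulated data. The number of arrays limits the precision.

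The members and the lists were chosen with earlier results of these data known. Named in the text were members called in any contrast, the 10 highest, the 4 largest differences per ligand, those at the threshold, those in a called host and part of those in the lists. MIR590, MIR181D, MIR620, MIR548I2, MIR877 and KRT18P27 were chosen after their values were seen. Host genes were taken from the RefSeq gene table, used for names and neighbours only. Alternatives were quantile normalization, equal medians, other filters, another variance model, fits of 2 groups, a replicate block and leaving out each array.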

Additional observations from a re-analysis of the deposited data

How the results depend on the processing

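Numbers of members called, with their value as reported, moved as follows when 1 choice was changed. With only the 2 groups in the fit, PROG against vehicle gave 2 in place of 4, PROG against DHT 1 in place of 3, PROG against DEX 0 and DHT against DEX 0, each in place of 1. Those fits have fewer arrays. With a trended, robust variance the number was 5 for DHT against vehicle, in place of 2, 5 for MPA against DEX, in place of 3, 3 for PROG against DEX, 2 for DHT against DEX and 1 for MPA against PROG. With tests limited to probe sets at log2 4 or more it was 4 for DHT against vehicle, 5 for MPA against DEX and 2 for PROG against DEX. For DHT against vehicle it was 1 after quantile normalization and 0 with all probe sets tested. Leaving out 1 array gave 3 to 10 for MPA against vehicle, 3 to 5 for PROG, 0 to 1 for DHT and 1 to 3 for DEX, 2 to 6 for MPA against DEX, 0 to 1 for PROG against DEX, 1 to 2 for DHT against DEX and 3 to 8 for the F test. Beyond the fewer arrays or genes tested, the cause was not tested. The other 118 alternative counts stayed within 1.5 times. Of the alternatives for single called members, 291 kept the call and the direction, 86 lost the call and 0 reversed.

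Same-numbered arrays of different groups did not deviate together (correlations from -0.054 to 0.067 over 30 pairs, none over 0.1). The numbers thus gave no sign of pairing the arrays, which does not exclude a pairing. With the replicate block 1 member was called for DHT against vehicle, in place of 2, and 7, 6 and 4 for MPA, PROG and DEX.

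With 3 arrays a group the median SE of a member's difference was 0.135. The table gives neither signal over background nor detection calls.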

Other observations

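MicroRNA transcripts left out by the rule also held a few calls. Among 25 probe sets of microRNA host transcripts with symbols ending in HG, MIR9-3HG fell by 0.25 with MPA (SE 0.046, adjusted p = 0.00355 by limma) at a mean of log2 3.55, beside MIR181A1HG. With the other ligands limma called 0, and an unadjusted p under 0.05 was reached by 4 with PROG, 1 with DHT and 1 with DEX. The called shares over all named probe sets were 5.93% with MPA, 2.82% with PROG, 0.889% with DHT and 1.11% with DEX. MIR9-3HG stood at 3.56, 3.65 and 3.65 on the vehicle arrays and 3.41, 3.35 and 3.35 with MPA, which do not overlap. Of 10 probe sets of let-7 genes, a family known for repressing growth genes, 5 had a mean of 4 or more and none of these 5 was called. MIRLET7F2, with a mean of 3.48, rose by 0.43 with MPA (adjusted p = 0.00133) and by 0.37 with DEX (adjusted p = 0.0206). The means of MIR9-3HG and MIRLET7F2 over the 15 arrays lie below the array medians, which ran from 3.69 to 3.73, while MIRLET7F2 reached 3.73 on MPA arrays 2 and 3.

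Among the 547 microRNA probe sets under log2 4, 8 were called with MPA, 6 higher and 2 lower, and 2 lower with PROG. None was called with DHT or DEX by limma, where an unadjusted p under 0.05 was reached by 40 and 42. Over all named probe sets the called shares were 5.93% with MPA, 2.82% with PROG, 0.889% with DHT and 1.11% with DEX. The share at the unadjusted threshold was not counted. These counts are not a result about the microRNA genes under log2 4.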
